A study of Mus musculus with 100 samples.

Results

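The AP-2 family of mouse transcription factors was followed through 37 RNA sequencing libraries of stem cells, differentiating cultures and whole embryos. The family has 5 members, Tfap2a, Tfap2b, Tfap2c, Tfap2d and Tfap2e, of 23109 gene-level entries in the tables. Members were taken by name and all 5 are accounted for; the read counts entered only in the choice of transcript, since the 1 transcript per gene was chosen by having the most reads over all libraries. The study asks what the methyltransferase activities of MLL3 and MLL4 do in early development, 2 related enzymes that place methyl groups on lysine 4 of histone H3. The family was proposed with earlier results of these data in view, among them the Tfap2e difference at neural day 8, which is therefore given as a description with no test.

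AP-2 proteins bind GC-rich DNA as dimers, through a helix-span-helix domain at their carboxy terminus, and mostly activate transcription. Tfap2a is known for its roles in surface ectoderm, neural crest, face and limb, and Tfap2b for kidney, heart duct, neural crest and inhibitory neurons. Tfap2c is a regulator of trophoblast, of germ cells and of the naive stem cell state. Tfap2d is known from the midbrain and Tfap2e from the olfactory bulb.

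The 37 libraries, of a series of 100 samples whose other 63 were not analysed here, fall into 18 groups. There are 11 pairs, 4 groups of 3 libraries and 3 groups with a single library. Every cultured group lacks Mll3 (Mll3-/-). The reference cells, termed flox, are Mll3-/-;Mll4flox/flox and the KI cells are Mll3-/-;Mll4KI/KI, the latter as clones 27 and 48. What KI stands for is not spelled out in the labels. The reference is therefore not wild type. Cultures comprised embryonic stem cells (ESCs, kept in 2i and LIF, day 0), embryoid bodies (EBs, aggregates in suspension) at days 4 and 10, and neural cultures. The neural cultures were EBs given retinoic acid, sampled as progenitors at day 8 and, after plating, as neurons at day 16. Trophectoderm (TE) cultures were taken at day 6 of a doxycycline-inducible lentiviral CDX2 transgene in trophoblast stem cell medium, and extraembryonic endoderm (ExEn) cultures were exposed to Activin A with retinoic acid and taken at day 5. Control embryos were Mll3flox/KI;Mll4flox/+;Sox2-Cre and KI embryos Mll3flox/KI;Mll4flox/KI;Sox2-Cre, taken whole at E8.5 and E9.5. Sox2-Cre is known to act in the epiblast, from which the embryo proper arises, and both embryo genotypes carry it and an Mll3 KI allele. KI has 2 libraries in each cultured group, flox has 2 in the neural, TE and ExEn groups and 1 at each time of the EB course, and each embryo group has 3. The labels do not say that cultures of 1 name are separate experiments, so p-values measure the spread between these samples, which may be technical.

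Gene-level totals ran from 18.9 M to 59.9 M reads per library, so that 3 reads, the most that a count of 0 allows, equal 0.05 to 0.16 CPM (reads scaled to a fixed gene-level total). These limits cover counting error only. In the 20 TE, ExEn and embryo libraries, transcripts with exactly 1 read were 0.377 to 0.508 times as many as those with 2, against 1.65 to 1.99 times in the 17 EB, ESC and neural libraries, so even counts are in excess in the former. Whether both mates of a read pair were counted there was not tested; if they were, the printed reads are 2 times the fragments and the limit of 3 fragments is 2 times as high in CPM. Cell labels were checked against marker lists. All 9 neuron markers reached 1 CPM in every neural library, and 13 or 14 of 16 trophoblast markers did so in the TE groups, where the late placental genes Tpbpa and Prl3d1 stayed near 0. That count does not set TE apart, since 13 of 16 did so in both ExEn groups, and the trophoblast sum of KI ExEn cultures (834 to 1099 CPM) was above that of flox TE cultures (822 to 830 CPM). All 12 extraembryonic endoderm markers did so in flox ExEn cultures but only 8 of 12 in KI ExEn cultures, where Apoa1 and Ttr had 0 reads in both libraries, so the label of the KI group rests on fewer markers. In bulk samples, fewer cells of a type and less RNA per cell cannot be told apart.

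Promoter sequences are shown for Tfap2a, which differed between genotypes in both extraembryonic cultures and at E9.5, and for Tfap2e, the member with a high level in 1 group. They are RefSeq windows of GRCm38.p6, from 250 bases before to 50 after a start, 5′ to 3′ on the minus strand, with CpG dinucleotides, the targets of DNA methylation, in capitals. The Tfap2a windows are chr13:40734871-40735170 and chr13:40733746-40734045, and the Tfap2e window is chr4:126736220-126736519.
Tfap2a, upstream start: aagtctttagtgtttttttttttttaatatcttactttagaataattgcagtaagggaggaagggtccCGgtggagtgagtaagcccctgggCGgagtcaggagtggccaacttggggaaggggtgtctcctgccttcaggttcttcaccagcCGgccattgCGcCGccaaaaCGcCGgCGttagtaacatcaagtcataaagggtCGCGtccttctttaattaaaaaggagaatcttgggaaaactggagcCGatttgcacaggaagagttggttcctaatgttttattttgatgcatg
Tfap2a, downstream start: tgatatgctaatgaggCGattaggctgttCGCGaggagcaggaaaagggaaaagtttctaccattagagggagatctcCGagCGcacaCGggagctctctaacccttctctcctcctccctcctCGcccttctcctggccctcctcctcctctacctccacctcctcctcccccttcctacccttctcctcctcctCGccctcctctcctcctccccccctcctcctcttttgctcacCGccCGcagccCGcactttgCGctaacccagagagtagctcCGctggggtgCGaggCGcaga
Tfap2e: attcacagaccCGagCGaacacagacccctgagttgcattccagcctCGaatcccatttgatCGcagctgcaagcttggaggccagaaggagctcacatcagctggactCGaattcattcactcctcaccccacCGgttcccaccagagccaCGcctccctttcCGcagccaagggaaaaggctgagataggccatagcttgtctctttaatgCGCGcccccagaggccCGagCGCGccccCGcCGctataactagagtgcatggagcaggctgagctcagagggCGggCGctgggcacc
The Tfap2e window held 17 CpG at 60.3% GC and the Tfap2a windows 11 and 15 at 46.3% and 61% GC, against a median of 7 CpG and 52.7% GC over 32851 promoter windows of the same length. The Tfap2b window held 8 CpG and the 3 Tfap2d windows 5, 5 and 10. The AP-2 motif GCCNNNGGC, which reads the same on both strands, was in none of the 7 windows of the 4 members that had an entry, and in 16.6% of all windows, with 2 or more matches in 2.81%. No match says only that these letters are not in this window.

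Tfap2a, Tfap2b and Tfap2c were each abundant in different lineages, Tfap2e was high in 1 group, and Tfap2d was hardly read at all. Tfap2a reached a group mean of 1 CPM in 17 of 18 groups, Tfap2c in 17, Tfap2b in 10, Tfap2e in 2 and Tfap2d in 0. These levels are descriptions. Tfap2d had 31 reads over all 37 libraries, at most 6 in any one, and no read in 28. Those 31 reads were in EB, neural and E9.5 libraries, and Tfap2d passed the filter on low counts in no comparison. Values by library are drawn in the plot of member levels.

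**Figure D1:**
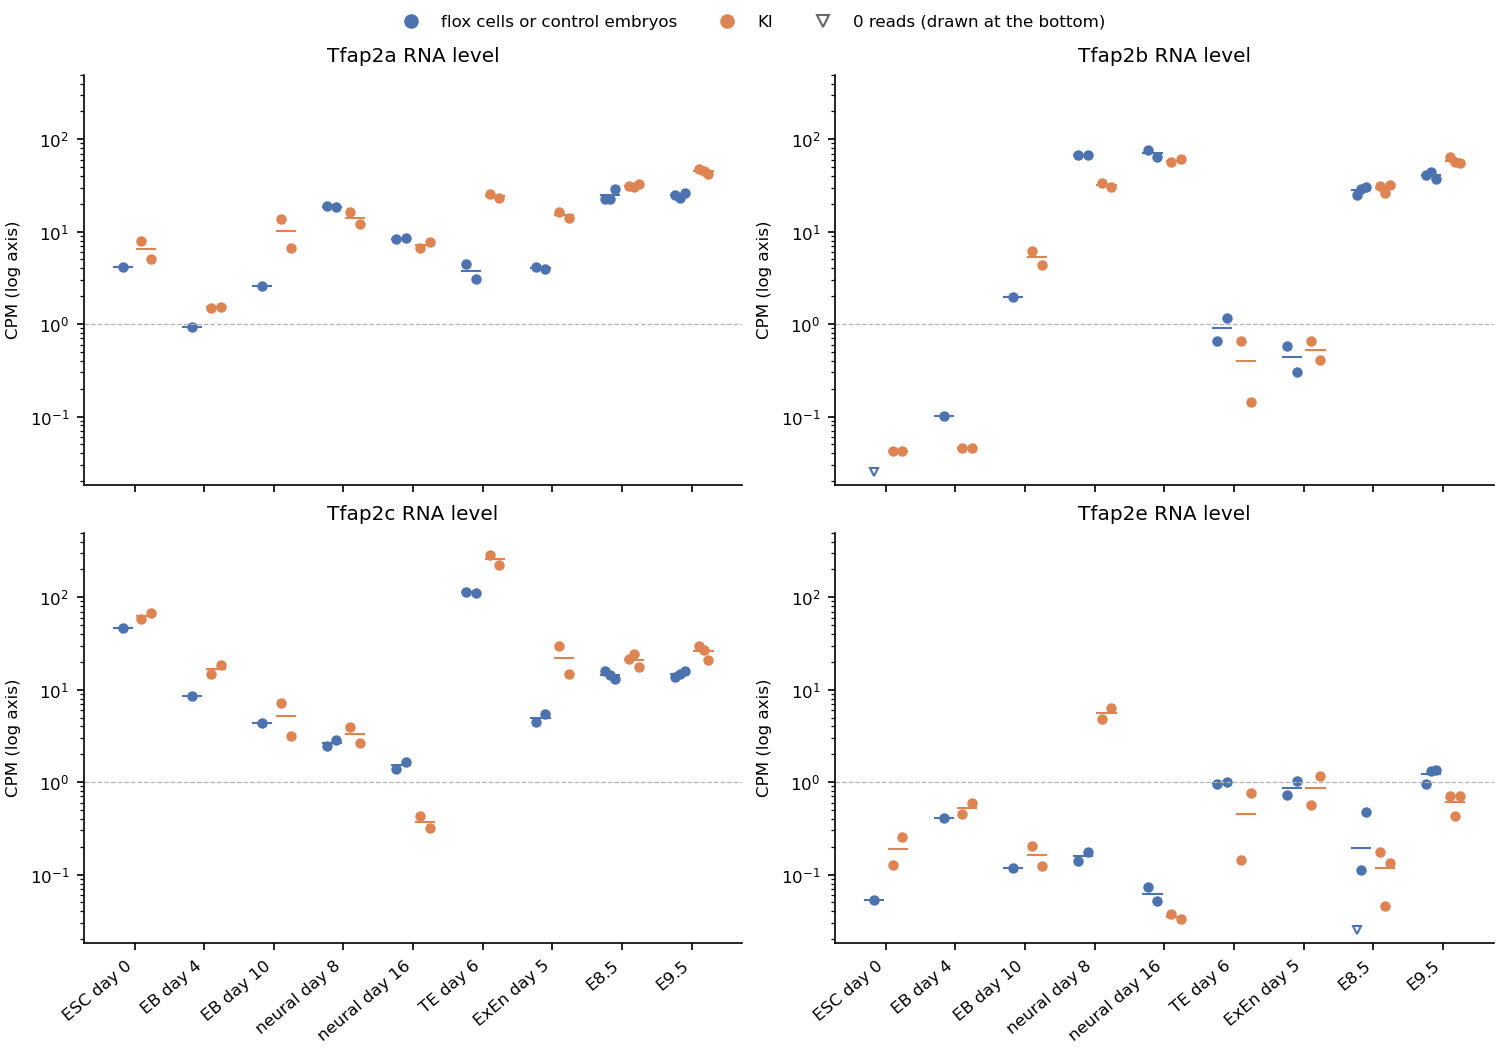
RNA level in CPM on a log axis (y) of 4 AP-2 members in each library (points, with group means as bars), by lineage and time (x); triangles mark libraries with 0 reads and the dashed line 1 CPM. Tfap2c peaks in TE cultures, at 226 to 290 CPM in KI, Tfap2b in neural cultures and embryos, Tfap2a in embryos, and Tfap2e only in KI neural cultures of day 8 exceeds 2 CPM.

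Tfap2b was the most lineage-bound of the 3 abundant members. It stood at 67.6 and 66.7 CPM in flox neural cultures of day 8, at 76.6 and 63.9 CPM at day 16, and at 36.7 to 63.5 CPM in E9.5 embryos. In ESCs it had 0 reads in flox and 1 read in each KI clone, and at EB day 4 at most 2 reads. TE and ExEn cultures held 4 to 30 reads per library, or 0.145 to 1.15 CPM. In the order of group means, flox neural cultures of day 16 and day 8 overlapped, then came KI neural day 16 and KI E9.5 embryos, which also overlapped.

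Tfap2c ranged from 0.317 CPM in a KI neural library of day 16 to 290 CPM in a KI TE library. After the 2 TE groups came ESCs, with 46.7 CPM in the flox library and 58.8 and 67.2 CPM in the KI clones. It was lower at EB day 4, with 8.63 CPM in flox, and at EB day 10, with 4.38 CPM in flox. Embryo groups lay between 13.0 and 30.1 CPM, and E9.5 KI, ExEn KI, E8.5 KI, EB day 4 KI and E9.5 control each overlapped their neighbour in the order. All 8 neural libraries were at 3.95 CPM or less, below every ESC, TE and embryo library.

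Tfap2a was highest in embryos, at 42.3 to 47.9 CPM in E9.5 KI and 22.3 to 29.2 CPM in E8.5 controls. Its lowest library was flox EB day 4 with 0.919 CPM, or 18 reads. The E9.5 control, E8.5 control and TE KI groups overlapped in the order of levels, while flox TE cultures ranked the fifteenth of 18.

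Tfap2e stood at 4.85 and 6.38 CPM, 211 and 312 reads, in the 2 KI clones of neural day 8. The flox libraries of that day had 0.139 and 0.176 CPM, 6 and 9 reads. The next group was E9.5 controls with 0.953 to 1.34 CPM, and from there to E8.5 KI embryos every group overlapped its neighbour in the order. By day 16 the KI clones were at 0.0370 and 0.0334 CPM, with 2 reads each, below the level of 3 reads.

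Levels of different genes were compared only per length, on the deposited RPKM, reads scaled for transcript length and library size. Summed over the family, the mean RPKM was 77.9 in TE KI and 31.4 in TE flox, with Tfap2c as 91.2% and 95.4% of it. ESCs had 13 RPKM in flox and 17.7 in KI, of which Tfap2c was 91.8% and 90.4%. In embryos no member exceeded 46.8%: Tfap2a made up 46.8% of 14.2 RPKM in E8.5 controls and 40.6% of 16.5 RPKM in E9.5 controls. The lowest sums were 2.32 RPKM in flox EB day 10, 2.57 in flox EB day 4 and 2.89 in flox ExEn cultures.

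**Figure D2:**
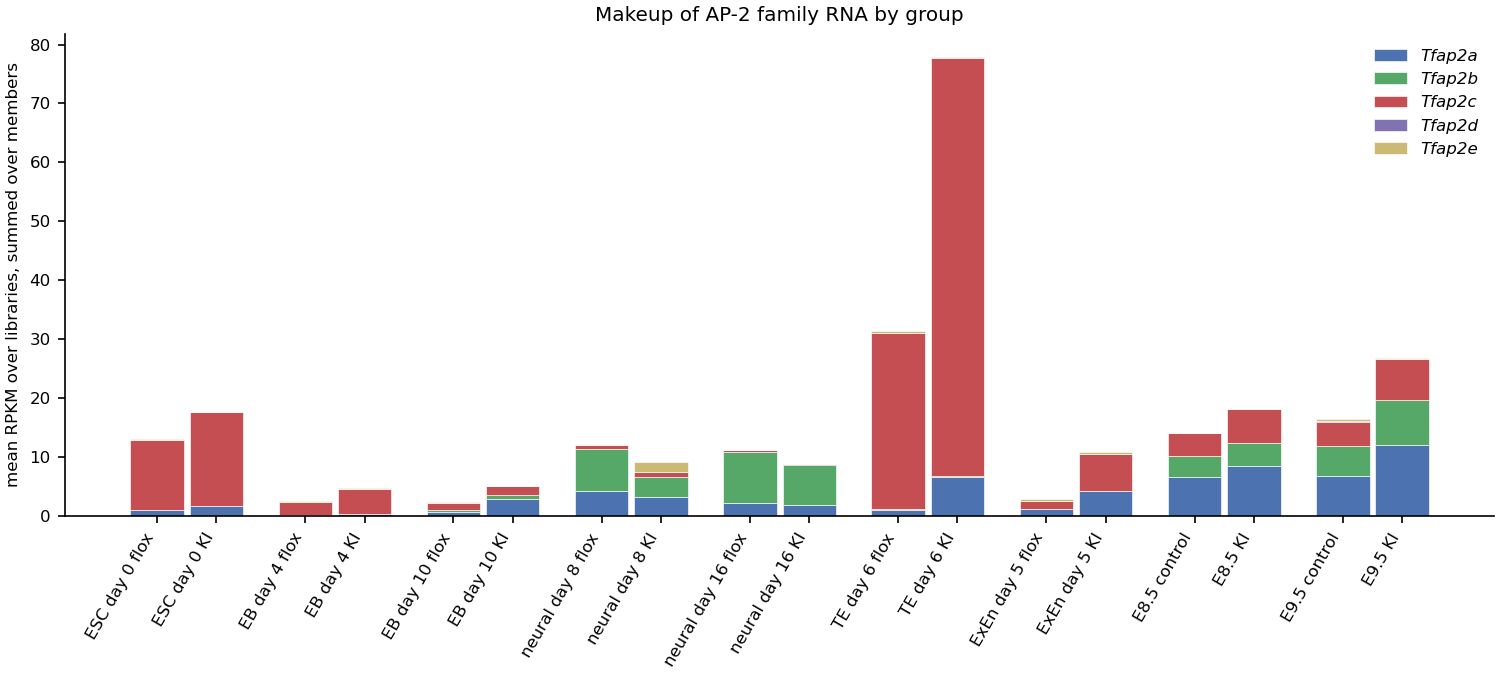
Mean deposited RPKM over the libraries of each group, stacked by AP-2 member (y), for the 18 groups (x), without error bars. TE cultures carry the largest sums, nearly all Tfap2c, while embryos mix Tfap2a, Tfap2b and Tfap2c and neural cultures carry mostly Tfap2b and Tfap2a.

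The family makeup of neural cultures of day 8 differed between the genotypes as a description. In flox cells Tfap2b was 59.5%, Tfap2a 34.8% and Tfap2e 0.397% of 12.1 RPKM. In KI cells these shares were 37.5%, 35.1% and 18.8% of 9.14 RPKM.

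The effect of KI on each member was tested with edgeR's quasi-likelihood test fitted on all genes of an experiment, and a gene is termed called at an adjusted p (Benjamini-Hochberg over all genes tested) under 0.05. Log2 fold changes and CPM refer to gene-level read counts, the former after TMM scaling. Comparisons of 1 experiment share its fit and some share libraries, so their values stand side by side and are not pooled. Tfap2d was tested nowhere, so counts of members are out of the 4 tested unless Tfap2e is set apart. Where groups are said not to overlap, this describes the libraries, and the share of all genes without overlap is not given. Effects by member are drawn in the plot of log2 fold changes.

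**Figure D3:**
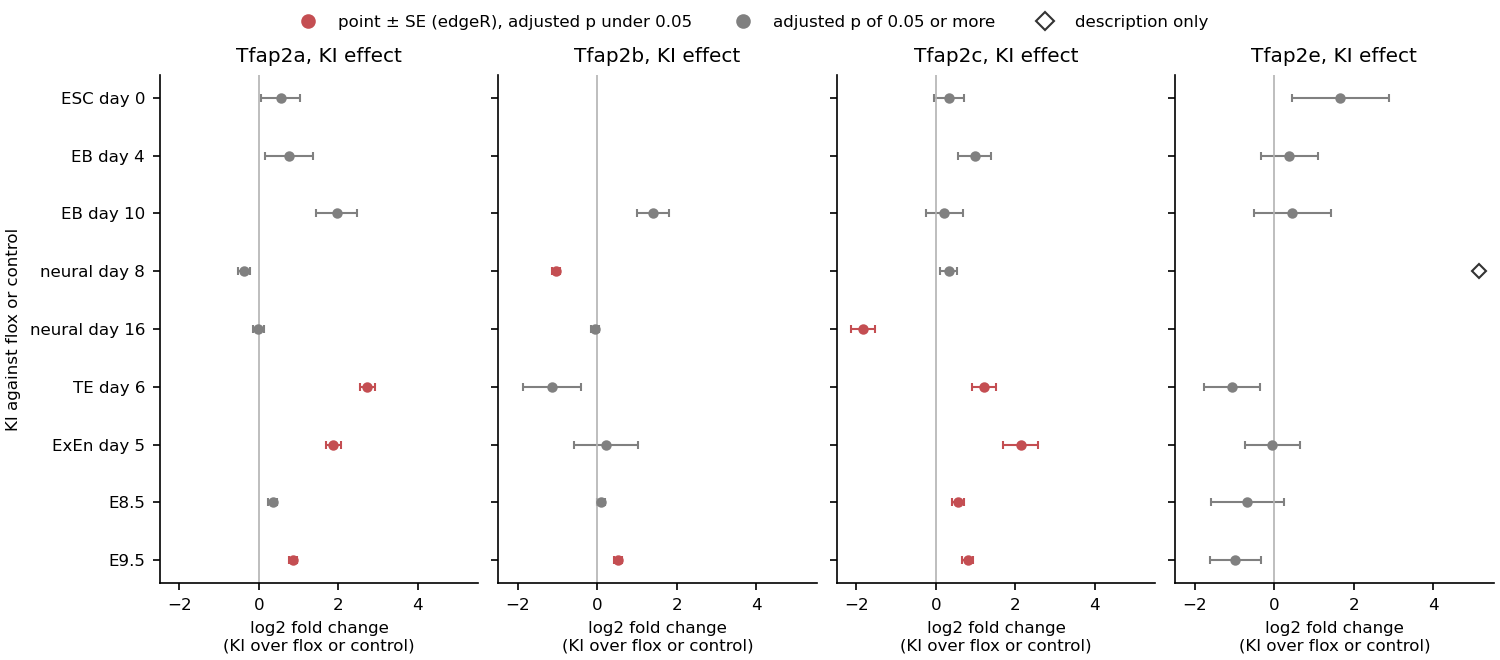
Log2 fold change of KI over flox cells or control embryos (x, point ± SE from edgeR) for 4 AP-2 members in 9 comparisons (y); red marks an adjusted p under 0.05, the open diamond a value given as a description, and no point is drawn where both groups average 3 reads or fewer. Tfap2a and Tfap2c lie to the right of 0 in TE, ExEn and E9.5, and Tfap2c to the left at neural day 16.

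In TE cultures Tfap2a and Tfap2c were higher in KI. Tfap2a had 4.48 and 3.11 CPM in the flox libraries and 25.7 and 23.3 CPM in KI, with no overlap. That is 6.61-fold, a log2 fold change of 2.72 (SE 0.19, adjusted p = 3.75e-08, n = 2 and 2, edgeR). Tfap2c had 115 and 112 CPM in flox and 290 and 226 CPM in KI, also without overlap, a log2 fold change of 1.22 (SE 0.30, adjusted p = 0.0276, edgeR). The Tfap2c call was lost when any 1 of the 4 TE libraries was left out (adjusted p up to 0.126), with a log2 fold change of 1.00 to 1.39. Tfap2b and Tfap2e, at 4 to 30 reads per library, had log2 fold changes of -1.14 (adjusted p = 0.213) and -1.06 (adjusted p = 0.222), and Tfap2e was called without KI clone 48 (-2.67). Thus 2 of the 4 members tested were called, both higher, against 50.9% of all genes.

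The trophoblast list, regulators and keratins of the placental lineage, moved in TE cultures too. Of 14 genes tested 9 were called higher and 3 lower, with a median log2 fold change of 0.98 against 0.01 over all genes. Among the called genes the largest changes were Elf5 (-3.79), a trophoblast stem cell factor, Gata2 (2.83) and Ascl2 (2.03). Cdx2, the gene of the transgene, had 27.1 and 29.9 CPM in flox and 103 and 107 CPM in KI (log2 fold change 1.92), and reads of transgene and endogenous gene were not separated. Of 15 neural crest genes 7 were higher and 2 lower, led by the homeobox genes Dlx2 (3.70) and Dlx1 (3.36) and by Zic1 (3.05), and of 18 surface ectoderm genes 5 were higher and 6 lower. Of 8 germ cell genes 1 was higher and 3 lower, with Prdm14 (-4.13) and Dppa3 (-2.70), both also expressed in naive stem cells, among the lower. The summed trophoblast level was 822 to 830 CPM in flox and 1679 to 1805 CPM in KI. The pluripotency list went the other way, with 8 of 10 genes lower and none higher, and sums of 1205 to 1243 CPM in flox and 449 to 580 CPM in KI. The part of the Cdx2 level and of pluripotency gene levels in the Tfap2a and Tfap2c differences was not tested.

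In ExEn cultures the same pair was higher in KI. Tfap2a had 4.12 and 3.98 CPM in flox and 16.3 and 14.0 CPM in KI, a log2 fold change of 1.87 (SE 0.19, adjusted p = 4.13e-06, n = 2 and 2, edgeR). Tfap2c had 4.46 and 5.47 CPM in flox and 29.5 and 14.9 CPM in KI, clone 27 being the higher, a log2 fold change of 2.14 (SE 0.44, adjusted p = 0.0213, edgeR). No KI library overlapped flox for either gene. Without flox replicate 1 or flox replicate 2 the Tfap2c call was lost (adjusted p up to 0.109), and it was kept without KI clone 27 (1.57) or clone 48 (2.53). Tfap2b and Tfap2e overlapped between genotypes, with log2 fold changes of 0.22 (adjusted p = 0.866) and -0.05 (adjusted p = 0.967). The members called were 2 of 4 tested, against 35.5% of all genes.

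Surface ectoderm genes rose in KI ExEn cultures more often than they fell, 10 higher and 1 lower of 18 tested, with a median log2 fold change of 0.67. Krt14, a keratin of basal epithelium, changed by 3.72, Trp63, a regulator of stratified epithelium, by 3.09, and Grhl2, an epithelial transcription factor, by 1.89. Of the trophoblast list 7 of 14 were higher and 3 lower, among them Esx1 (2.75), Eomes (-2.74) and Krt7 (2.36). All 12 extraembryonic endoderm markers were lower, with a median of -3.11. Their summed level was 5305 to 5420 CPM in flox and 2553 to 2739 CPM in KI. The part of this shift in marker levels in the Tfap2a and Tfap2c differences was not tested.

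The KI effect on Tfap2a was larger in TE than in ExEn cultures, by 0.85 on the log2 scale (SE 0.27, adjusted p = 0.023, interaction term, edgeR). It was the 1 member called of 4 tested, against 35.3% of all genes. The call was lost on leaving out TE flox replicate 2, TE KI clone 27, ExEn flox replicate 1, ExEn flox replicate 2 or ExEn KI clone 48, with values of 0.58 to 1.11. For Tfap2c the difference was -0.92 (SE 0.54, adjusted p = 0.273). With the line or clone as a block, which the shared clone names 27 and 48 allow, it was -0.88 (SE 0.22, adjusted p = 0.0131, edgeR). So 2 members were called with the block, while the genes called overall went from 5486 to 5950. That block also pairs the flox libraries by number, whose deviations correlated at -0.01.

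In neural cultures of day 8, Tfap2b was lower in KI. The flox libraries had 67.6 and 66.7 CPM and the KI clones 33.3 and 30.4 CPM, with no overlap, a log2 fold change of -1.04 (SE 0.10, adjusted p = 1.94e-05, n = 2 and 2, edgeR), or 2.06-fold lower. Tfap2a had 18.8 and 18.6 CPM in flox and 16.1 and 12.1 CPM in KI, a log2 fold change of -0.37 (adjusted p = 0.0914), and it was called without KI clone 27. Tfap2c overlapped, at 2.46 and 2.89 CPM in flox and 3.95 and 2.62 CPM in KI, with a log2 fold change of 0.32 (adjusted p = 0.383). For Tfap2e the log2 fold change was 5.16, given as a description. With it, 2 of 4 members passed the threshold, against 19.5% of all genes, and nothing is read from that count. The 2 flox libraries of this day differed least of all replicate pairs, with a chi-square over genes that was 1.5 times its degrees of freedom where other pairs had ratios from 2.76, and they were kept as 2 samples.

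Lists around the family were mixed at neural day 8. Of 17 neural crest genes 3 were higher and 5 lower, with Msx2 (2.68), a BMP-responsive homeobox gene, and Ednrb (1.34) higher and Ets1 (-1.15) lower. Their sum was nonetheless higher in KI, at 868.3 to 882.5 CPM in flox and 1083 to 1197 CPM in KI. Of 11 dorsal inhibitory neuron genes, a class in which Tfap2a and Tfap2b are expressed, 1 was higher (Pax8, 0.59) and 1 lower (Lhx5, -0.96). Of 16 surface ectoderm genes 2 were higher, among them Grhl2 (1.74), and 1 lower, Krt14 (-2.90). Of 11 trophoblast genes 4 were higher and 2 lower, with Gata3 (1.90) higher and Cdx2 (-1.90) lower. The neuron list had 7 of 9 genes lower, with sums of 1672 to 1696 CPM in flox and 1101 to 1318 CPM in KI. Of 11 extraembryonic endoderm genes 9 were lower and 1 higher. All 4 endothelium genes were lower, with sums of 83.2 to 84.3 CPM in flox and 11.4 to 17.1 CPM in KI. The part of these shifts in the Tfap2b and Tfap2e differences was not tested.

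At neural day 16 Tfap2c was the 1 member called of the 3 apart from Tfap2e, against 46.9% of all genes. It had 1.40 and 1.67 CPM in flox and 0.426 and 0.317 CPM in KI, 77 and 65 reads against 23 and 19, a log2 fold change of -1.83 (SE 0.30, adjusted p = 0.000383, n = 2 and 2, edgeR). Tfap2b stood at 76.6 and 63.9 CPM in flox and 56.6 and 60.9 CPM in KI, yet its log2 fold change was -0.05 (adjusted p = 0.692). Tfap2a stood at 8.28 and 8.54 CPM in flox and 6.70 and 7.78 CPM in KI, with a log2 fold change of -0.01 (adjusted p = 0.967). Here the scaling matters: the median log2 ratio of all genes was -0.10 in plain CPM and 0.09 after TMM scaling. Tfap2e had 2 to 4 reads per library, passed the filter through KI day 8, and gives no usable fold.

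Surface ectoderm genes fell at day 16 as well, 9 of 16 tested and none higher, with a median of -1.44, led by Krt19 (-6.55), Krt15 (-5.70) and Krt18 (-4.33). Of the trophoblast list 6 of 11 were lower and none higher, led by Krt7 (-6.12). The mesothelial gene Upk3b fell by 8.18 on the log2 scale. Summed surface ectoderm levels were 39.5 to 45.8 CPM in flox and 12.6 to 14.8 CPM in KI, and all 9 neuron genes were higher in KI. The part of these shifts in marker levels in the Tfap2c difference was not tested.

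The KI effect differed between the 2 neural days for Tfap2b and Tfap2c, 2 of the 3 members tested apart from Tfap2e, against 33.2% of all genes. For Tfap2b it was 0.99 higher at day 16 (SE 0.15, adjusted p = 0.000327, interaction term, edgeR) and for Tfap2c -2.15 (SE 0.37, adjusted p = 0.000962). For Tfap2e no test is given, since the difference contains the day 8 value, and its day 16 part rests on 2 to 4 reads per library. For Tfap2a it was 0.36 (adjusted p = 0.197). Between days within flox cells, Tfap2a changed by -1.12 (SE 0.15, adjusted p = 1.56e-05, edgeR) and Tfap2c by -0.78 (SE 0.24, adjusted p = 0.00903), 2 of the 3 members apart from Tfap2e, which had 2 to 9 reads per library there, against 77.1% of all genes. The Tfap2c call there was lost without flox day 16 replicate 1 or flox day 8 replicate 2. Tfap2b in flox moved by 0.10 (adjusted p = 0.39). Within KI cells the 3 members apart from Tfap2e passed, against 79.9% of all genes: Tfap2b rose by 1.09 (SE 0.10), Tfap2a changed by -0.76 (SE 0.15) and Tfap2c by -2.94 (SE 0.28). Tfap2e, a description, went from 211 and 312 reads to 2 reads in each clone. Tfap2b thus went from 33.3 and 30.4 CPM at day 8 to 56.6 and 60.9 CPM at day 16 in KI.

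At E9.5 the 3 abundant members were all higher in KI embryos. Tfap2a had 25.2, 23.2 and 25.9 CPM in controls and 47.9, 45.1 and 42.3 CPM in KI, a log2 fold change of 0.86 (SE 0.11, adjusted p = 9.24e-06, n = 3 and 3, edgeR). Tfap2b had 41.1, 44.0 and 36.7 CPM in controls and 63.5, 56.2 and 55.8 CPM in KI, a log2 fold change of 0.52 (SE 0.10, adjusted p = 0.000688). Tfap2c had 13.8, 14.8 and 16.1 CPM in controls and 30.1, 26.9 and 20.8 CPM in KI, a log2 fold change of 0.80 (SE 0.15, adjusted p = 0.000445). Controls and KI did not overlap for any of the 3, with no share of all genes to set beside that. Tfap2e, at 24 to 36 reads in controls and 10 to 17 in KI, did not overlap either, but its log2 fold change of -0.97 was not called (adjusted p = 0.264). That makes 3 of 4 members tested, against 29.5% of all genes.

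Among the lists at E9.5, surface ectoderm had 5 of 17 genes higher and 1 lower, with Krt18 (1.20) and Krt8 (1.04), simple epithelial keratins, higher and Krt5 (-2.51) lower. Neural crest had 4 of 17 higher and 3 lower, Snai2 (1.06) and Msx2 (1.04) among the higher. Trophoblast had 3 of 14 higher and 1 lower, with Hand1 (2.01) and Gata3 (1.08) higher. Marker levels of other cell types in whole embryos moved as well. The neuron list had 6 of 9 genes lower and none higher, its sum at 236 to 331 CPM in controls and 99.4 to 106 CPM in KI. All 6 heart genes were higher, and the heart sum was 386 to 511 CPM in controls and 942 to 1798 CPM in KI. The surface ectoderm sum was 307 to 516 CPM in controls and 671 to 699 CPM in KI, and the trophoblast sum 319 to 403 CPM and 501 to 511 CPM. Summed blood genes ran from 2145 to 6024 CPM in controls and 426 to 2080 CPM in KI, and neural crest sums overlapped at 718 to 871 and 826 to 931 CPM. The part of these shifts in marker levels in the 3 AP-2 differences was not tested.

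At E8.5 only Tfap2c passed the threshold. It had 15.9, 14.3 and 13.0 CPM in controls and 21.6, 24.0 and 17.4 CPM in KI, without overlap, a log2 fold change of 0.55 (SE 0.15, adjusted p = 0.0345, n = 3 and 3, edgeR). It was the 1 member called of the 3 apart from Tfap2e, against 5.46% of all genes. The call was lost with reads summed over transcripts and without KI 1, KI 2, control 1, control 2 or control 3 (adjusted p up to 0.162, log2 fold change 0.43 to 0.67). Tfap2a had 22.3, 22.5 and 29.2 CPM in controls and 31.2, 30.1 and 32.4 CPM in KI, a log2 fold change of 0.34 (SE 0.11, adjusted p = 0.0717). With the number in the embryo titles as a block, which deviated together in all 3 pairs, it was 0.35 (SE 0.10, adjusted p = 0.0334, edgeR) and Tfap2c 0.54 (adjusted p = 0.0178). So 2 members were called, while the genes called overall went from 843 to 1304. Tfap2b overlapped, with 24.8 to 30.2 CPM in controls and 26.5 to 31.6 CPM in KI and a log2 fold change of 0.10 (adjusted p = 0.678). Tfap2e had at most 10 reads per library and passed the filter through the E9.5 libraries.

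Of the lists at E8.5, surface ectoderm had 2 of 17 genes higher and 1 lower and trophoblast 2 of 14 higher and 1 lower. Neural crest had 4 of 17 higher and none lower, with Snai2 (1.24), a regulator of cell delamination, Ednrb (0.68) and Msx2 (0.58) as the largest. Summed surface ectoderm genes stood at 631 to 808 CPM in controls and 823 to 1024 CPM in KI. The trophoblast sum was 401 to 456 CPM in controls and 558 to 640 CPM in KI. Of 4 endothelium genes 3 were higher and none lower, with sums of 204 to 243 CPM in controls and 274 to 389 CPM in KI. The blood sum was 651 to 1233 CPM in controls and 102 to 184 CPM in KI. The part of these sums in the Tfap2c and Tfap2a values was not tested.

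Between stages, the KI effect on Tfap2a was 0.52 larger at E9.5 than at E8.5 on the log2 scale (SE 0.15, adjusted p = 0.0465, interaction term, edgeR). It was the 1 member called of the 3 apart from Tfap2e, against 6.63% of all genes. That call was lost with RLE scaling, with no filter, and without E8.5 KI 1, 2 or 3, E8.5 control 3, E9.5 control 1 or 2, or E9.5 KI 1 or 2 (0.38 to 0.60). For Tfap2b the difference was 0.43 (adjusted p = 0.0839, edgeR), and 0.43 (adjusted p = 0.0468) with the title number as a block. So 2 members were called with the block, while the genes called overall went from 1024 to 1547. For Tfap2c the stage difference was 0.25 (adjusted p = 0.533, edgeR), not called. For Tfap2e it was -0.30, a description, since its E8.5 side rests on 0 to 10 reads per library. The block also pairs the E9.5 embryos, where not every same-numbered pair deviated together. In control embryos Tfap2b rose from E8.5 to E9.5 by 0.48 (SE 0.10, adjusted p = 0.00201, edgeR). It was the 1 member called of the 3 apart from Tfap2e, against 24.2% of all genes. Tfap2e went from 0, 3 and 10 reads to 24, 36 and 30 reads. It passed the filter through the E9.5 libraries, so its log2 fold change of 2.55 is a description. Over the 6 libraries left out in turn its log2 fold change ran from 1.98, without E8.5 control 1, to 4.10, without E8.5 control 3. Tfap2a and Tfap2c moved by -0.06 (adjusted p = 0.76) and -0.01 (adjusted p = 0.959) in controls. In KI embryos Tfap2a rose by 0.46 (SE 0.11) and Tfap2b by 0.91 (SE 0.10), 2 of the 3 members apart from Tfap2e, against 32.5% of all genes. Tfap2e, with 1 to 4 reads per library at E8.5, changed by 2.25 (1.88 to 2.63 on leaving out a library), again a description.

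In the EB course flox had 1 library per day, so the effect of KI was averaged over 3 days. The 6 KI libraries are 2 clones on 3 days, whose deviations correlated between days at 0.15 to 0.39, yet the fit takes them as independent. There 0 of 4 members were called, against 0.730% of all genes. The log2 fold changes were 1.08 for Tfap2a (SE 0.38, adjusted p = 0.223), 1.07 for Tfap2b (SE 0.54, adjusted p = 0.371), 0.51 for Tfap2c (SE 0.26, adjusted p = 0.371) and 0.66 for Tfap2e (SE 0.48, adjusted p = 0.544). The Tfap2b value includes days 0 and 4, with 0 to 2 reads per library, and depends on the prior count there. The Tfap2e value rests on 1 to 13 reads per library. Over all genes 121 were called by edgeR, and 2720 had an unadjusted p under 0.05. On single days the lone flox library was assumed to vary like the KI clones. No member was called on day 0, against 11.9% of all genes, on day 4, against 7.70%, or on day 10, against 10.5%. On days 0 and 4 Tfap2b, with 0 to 2 reads per library, had passed the filter through day 10 and is not counted. Tfap2e, with 1 to 6 reads per library on day 0 and 3 or 4 on day 10, had passed through day 4. It is not counted on days 0 and 10. At day 10 Tfap2a had 2.60 CPM in flox and 13.8 and 6.58 CPM in KI, a log2 fold change of 1.96 (SE 0.52, adjusted p = 0.0573, edgeR), and Tfap2b 1.98 CPM in flox and 6.14 and 4.37 CPM in KI, a log2 fold change of 1.40 (SE 0.40, adjusted p = 0.0666). Leaving out either clone, which sets 1 library against 1 on that day, let 2 or 3 members pass at day 10, while the genes called overall went from 1732 to 4548 without clone 27 and 4952 without clone 48. Tfap2c at day 10 had 4.38 CPM in flox, between 7.21 and 3.17 CPM in the clones. In ESCs both KI clones were above the flox library for Tfap2a and Tfap2c, with 7.89 and 5.04 against 4.12 CPM and with 58.8 and 67.2 against 46.7 CPM, and neither difference was called. At day 10 the surface ectoderm list had 4 of 19 genes higher and 1 lower, and the extraembryonic endoderm list 6 of 12 higher and none lower. Heart genes were lower in 5 of 6 and higher in none, with a sum of 2326 CPM in flox and 226 to 333 CPM in KI, and mesothelium genes were lower in 3 of 4. The part of these shifts in the Tfap2a and Tfap2b values was not tested.

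The list of cofactors and inhibitors of AP-2 proteins holds 10 genes, among them the CITED coactivators, the acetyltransferases Ep300 and Crebbp and the inhibitors Kctd1 and Kctd15, and its median log2 fold change lay between -0.11 and 0.11 in the 6 comparisons drawn. In TE cultures 2 were higher and 1 lower, in ExEn cultures 2 and 2, at E9.5 2 and 2, at E8.5 0 and 1, at neural day 8 1 and 0, and at neural day 16 3 and 2. Per comparison that is 30%, 40%, 40%, 10%, 10% and 50% of the list, to be read against the 50.9%, 35.5%, 29.5%, 5.46%, 19.5% and 46.9% of all genes called. Among the called genes of this list at E9.5, the largest changes were Wwox (0.79), Yeats4 (-0.35) and Kctd1 (0.32). Among those called at neural day 16, Cited4 (-1.13), Kctd15 (-0.59) and Cited1 (0.54) led. In ExEn cultures Cited1 changed by -2.51 and Cited4 by 1.50.

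**Figure D4:**
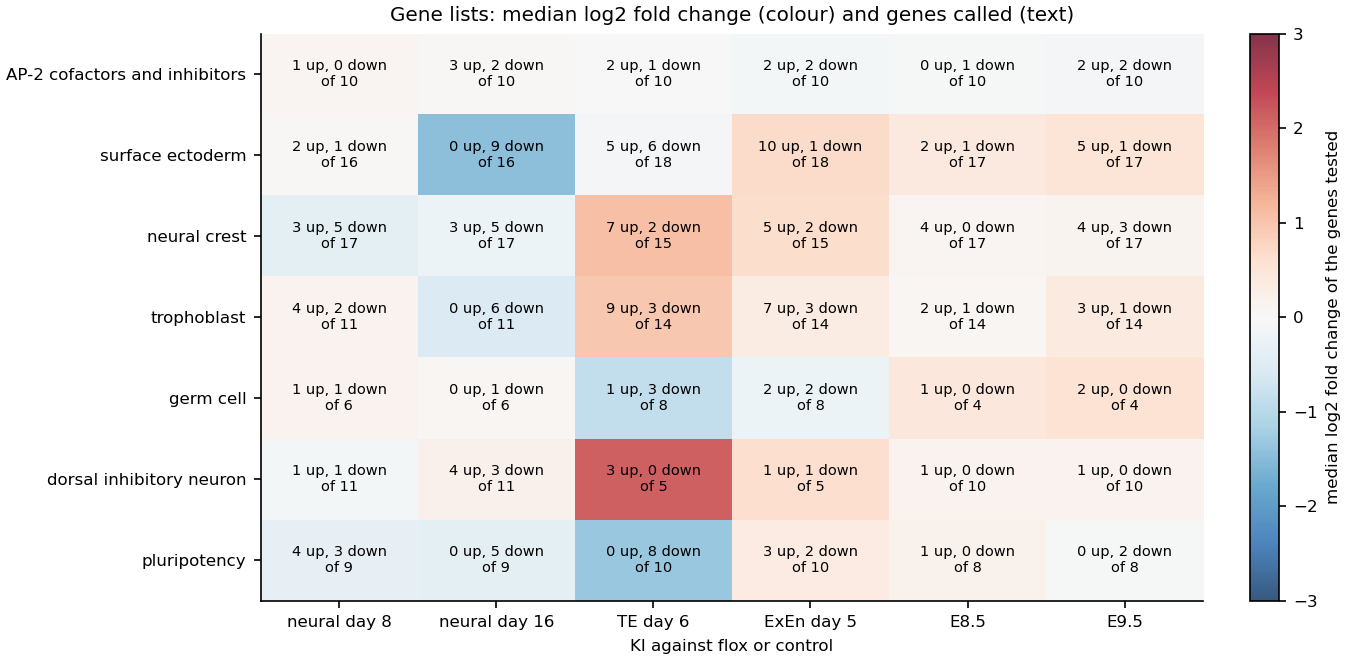
Median log2 fold change (colour) of the genes tested in 7 lists (y) for KI against flox or control in 6 comparisons (x); the text in each cell counts the genes called higher (up) and lower (down). In TE the trophoblast list has 9 up and 3 down of 14, in ExEn surface ectoderm has 10 up and 1 down of 18, and at neural day 16 surface ectoderm has 0 up and 9 down of 16.

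The genes most like each member over the 18 group means were named by Pearson correlation of log2(CPM + 0.5) among 16117 genes, as a description. Groups of 1 experiment share depth, preparation and, in cultures, cell lines. For Tfap2c they included Tert (0.958), the telomerase catalytic subunit, Pgap2 (0.930), Arhgef1 (0.926) and Kank3 (0.926). For Tfap2b they were Mllt3 (0.973), Ctbp1 (0.965), Dgcr2 (0.963), Lsm14b (0.951) and Rmst (0.950). For Tfap2a they were Snapc2 (0.833), Clk3 (0.806), 4930481A15Rik (0.801), Zkscan7 (0.780) and Foxd2 (0.779). For Tfap2e, whose pattern rests on 1 group, they were Clca1 (0.745), Cyp27a1 (0.714), Hsd17b4 (0.680), Matn3 (0.664) and Abhd15 (0.657). Between members the correlation was 0.65 for Tfap2a with Tfap2b, 0.13 for Tfap2a with Tfap2c and -0.55 for Tfap2b with Tfap2c.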

How the data were processed

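RNA was poly(A)-selected, per the labels' protocols. The submitters' processing notes name bcl2fastq, STAR, Bowtie2, SICER 1.1 and mm9, without roles; the counting tool and use of strand are not given in the sources used here. Tfap2a and Tfap2d overlap annotated noncoding genes or pseudogenes (GRCm38.p6) that are not measured. Per the file headers, the authors list for each of 29082 transcripts its reads, as whole-number counts, and an RPKM. The deposited counts were tested. The deposited RPKM values served for levels between genes.

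Accessions gave symbols for 28436 transcripts, and 646 had none. Transcripts of a gene share reads, so the one with the most reads over 37 libraries was kept, leaving 23109 entries and 70.5% to 74.4% of a table's reads. CPM are relative to that total. EdgeR 4.0.16 in R 4.3.3 was run with filterByExpr (minimum 10), TMM and glmQLFit, in separate fits of 8 neural, 8 TE and ExEn, 12 embryo and 9 ESC and EB libraries. The SE is the absolute log2 fold change over the square root of F. The fit was tested on simulated data. Alternatives were RLE scaling, DESeq2 1.42.0, no filter, sums over transcripts, only the libraries compared, leaving out each library, a replicate block and, added after seeing the data, halved counts.

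Deviations of same-numbered E8.5 embryos correlated (0.30, 0.35 and 0.15), so the title number was taken to pair them. KI clones are the same line at both times (0.27 in neural, 0.25 in TE and ExEn cultures, 0.15 to 0.39 in the EB course), while flox numbers gave 0.10 and -0.01. E9.5 numbers gave -0.00 to 0.17, with 0.17 for 1 number, and were not taken to pair, since not every pair was over 0.1.

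The members and lists were chosen with earlier results of these data known. Named are the 5 members, from each list up to 3 called genes with the largest absolute log2 fold change where a member was called (those of the lists nearest the family are printed), and the 5 genes most like each member; 2 of the genes so named are not reported here. Cdx2, Apoa1, Ttr, Tpbpa, Prl3d1 and the choice among lists were picked after values were seen.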

Additional observations from a re-analysis of the deposited data

Results flagged for a closer look

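The effect of KI differed between the 2 neural days for Tfap2b and Tfap2c, by an interaction term in edgeR. For Tfap2b the log2 difference, day 16 minus day 8, was 0.990 (adjusted p = 0.000327), since Tfap2b was lower in KI at day 8 (-1.04) and near flox at day 16 (-0.05). For Tfap2c it was -2.153 (adjusted p = 0.000962), from 0.32 at day 8 to -1.83 at day 16. For Tfap2e the fitted difference was -5.777, with no test given, because the day 8 value was known when the family was chosen. Its day 16 part rests on 2 to 4 reads per library, so its size depends on the prior count.

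The effect of KI on Tfap2a differed between TE and ExEn cultures by 0.854 (adjusted p = 0.023, interaction term, edgeR), at 2.72 and 1.87, and was positive in both. In embryos it differed between E9.5 and E8.5 by 0.519 (adjusted p = 0.0465), at 0.86 and 0.34. Leaving out single libraries ended either call, with adjusted p up to 0.135 and 0.147. No group held 4 or more libraries, so no library was tested as standing apart from its group.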

How the results depend on the processing

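Of 729 values of member effects under the alternatives, 654 kept their direction and side of the threshold, 38 lost the call, 16 gained one and 21 changed sign. Of 180 group levels under other settings 66 moved by more than the spread, 55 of them with sums over transcripts, which raised Tfap2c in KI TE cultures from 258 to 364 CPM and lowered Tfap2e in KI neural cultures of day 8 from 5.62 to 4.10 CPM. Halving the counts of the TE, ExEn and embryo libraries changed no count of members called. The number of members called became 0 for the embryo stage difference of KI effects with RLE scaling and with no filter, 2 at E8.5 with DESeq2 and 0 with sums over transcripts, and 1 at EB day 10 with DESeq2 and with sums over transcripts. Genes called overall went from 843 at E8.5 to 1227 with DESeq2 and 747 with sums, and from 1024 for the stage difference to 1009 with RLE scaling and 1045 with no filter. With a replicate block the number of members called became 2 for TE minus ExEn, 2 at E8.5 and 2 for the embryo stage difference. Genes called overall rose in each of these, and the block changed no other count of members. No paired analysis was possible for KI against flox within cultures because each clone has 1 genotype.

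Leaving out 1 embryo library gave 0 to 1 members called at E8.5, while genes called overall went from 843 to between 363 and 755. It gave 0 to 2 for the stage difference (genes from 1024 to between 607 and 1175). With Tfap2e included, it gave 1 to 2 for control embryos between stages (genes from 3738 to between 2527 and 3825). For KI embryos between stages it gave 2 (genes from 5012 to between 3715 and 4865), against 3 in the main fit with Tfap2e included. A fit of only those KI libraries, in which Tfap2e did not pass the filter, also gave 2. In cultures, leaving out a library can leave 1 in a group, and the calls that changed are named with each comparison above. Effects that changed sign on leaving out a library ranged, for Tfap2a, from -0.14 to 0.11 at neural day 16 and from -0.15 to 0.07 in control embryos between stages. For Tfap2b they were -0.17 to 0.08 at neural day 16, -0.03 to 0.22 in flox neural cultures between days, -0.16 to 0.75 in ExEn and -0.16 to 1.46 in the EB course. For Tfap2c they were -0.09 to 0.03 in control embryos between stages and -0.47 to 0.71 at EB day 10, and for Tfap2e -0.67 to 0.39 in ExEn, -1.23 to 0.88 at E8.5 and -1.86 to 0.25 for the embryo stage difference. Tfap2c in control embryos between stages, -0.01 as reported, was 0.01 with no filter, 0.00 with sums over transcripts and 0.00 with only the libraries compared. The causes were not tested. Depth limits Tfap2d everywhere, Tfap2e at neural day 16 (2 to 4 reads per library) and E8.5 (0 to 10 reads), and Tfap2b in ESCs and at EB day 4 (0 to 2 reads). It also limits Tfap2e in ESCs (1 to 6 reads) and at EB day 10 (3 or 4 reads).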
